A study of Mus musculus with 12 samples.

Results

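The genes described here encode the Toll-like receptors (TLRs) of the mouse and their relatives Cd14 and Cd180. The members are 10 genes, Tlr1, Tlr2, Tlr3, Tlr4, Tlr6, Tlr7, Tlr9, Tlr13, Cd14 and Cd180, and an array probe was taken as theirs where its RefSeq accession belongs to the gene. Probes were found for 9 of the 10, among 17305 gene symbols with a probe, and Tlr13 is not analysed here. All 9 passed the filter on dim probes (1 group or more with all 3 of its arrays well above background) and are among the 19305 genes and transcripts tested. The probe of Tlr3 passed through the untreated and LPS groups, and the probes of the other 8 members were well above background on all 12 arrays.

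TLRs are sensors of the innate immune system that bind conserved parts of microbes and start the production of cytokines and interferons. Some sit on the cell surface, where Tlr4 with its partner MD-2 recognises lipopolysaccharide (LPS) of bacterial cell walls handed over by Cd14, and where Tlr2 pairs with Tlr1 or Tlr6 to bind bacterial lipoproteins. Others, such as Tlr3, Tlr7, Tlr9 and Tlr13, sit in endosomes and read RNA or DNA. In the brain, microglia are the cells best known for carrying them.

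The study asked how curcumin, a polyphenol of turmeric, changes gene expression in resting and in activated microglia. It used BV-2, a mouse microglial line immortalised in culture, and measured total RNA on one-colour Agilent arrays, 3 arrays in each of 4 groups. BV-2 cells were left untreated or were given curcumin (20 µM), LPS (100 ng/ml) or the same doses of both agents (LPS+curcumin). The treatments lasted 6 h according to the labels, which give neither a time nor a vehicle for the untreated cells. The labels do not say whether replicates came from separate cultures, so p-values measure the spread between these arrays, which may be technical. Slide and replicate number coincide, all 4 groups are on each of the 3 slides with 1 array apiece, and a group's position is the same on every slide, so group and position cannot be told apart.

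Levels are given as log2 of the processed signal (a spot intensity after background subtraction) minus the array's 75th percentile, so that 0 is the brightness of that percentile. On each array 58.0% to 65.9% of spots were well above background and the percentile lay between 304 and 979. Of 11 microglia and macrophage markers with a probe, 11 were above background in untreated cells, 9 with curcumin, 10 with LPS and 9 with both. Those missing were Cx3cr1 in both curcumin groups and P2ry12 in every treated group. LPS+curcumin replicate 1 stood apart from its group: its mean correlation over genes was 0.982 with arrays of the LPS group and 0.9496 with those of the curcumin group, against 0.939 and 0.984 for replicate 2 and 0.922 and 0.985 for replicate 3. The oxidative stress gene Hmox1 had a level of 8.56 on it, against 8.95 and 9.05 on the other LPS+curcumin arrays and 5.85, 5.28 and 5.68 on the LPS arrays. The cytokine genes Tnf, Il6 and Il1b had levels of 5.28, 0.86 and -0.050 on it. They were 3.48, -2.76 and -3.42 on replicate 2 and 3.69, -3.95 and -3.45 on replicate 3. Their lowest levels on the LPS arrays were 5.01, 3.72 and 3.93. Results that rest on LPS+curcumin replicate 1 are given with and without it. Scaling mattered too. The median of all genes with curcumin was 0.41 on the 75th percentile and -0.69 on spike-in scaling (arrays set level on control transcripts added to each RNA), and for LPS+curcumin against LPS it was 0.32 and -0.42. With LPS alone it was 0.01 and -0.27.

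Upstream sequences were looked up for 7 members in a reference set of mouse promoters (build GRCm38.p6). The 250 bases before each start site it holds were taken, and some of those with a match are shown. A link between the matches and the levels below was not tested. Tlr4 and Tlr7 have no entry in that set, and Cd14 was not looked up because its chromosome was left out of the search. Both strands were searched for 4 motifs. They were the NF-kB site (kB motif), the PU.1 motif GAGGAA of the myeloid factor PU.1, the AP-1 motif TGANTCA, and the core of interferon-response elements (ISRE-type motif). The kB motif was found upstream of Tlr2 and Tlr3 and is present in 7.25% of all 32851 promoters of this length. The PU.1 motif was found for Tlr1, Tlr9 and Tlr13 (23.3% of all promoters), the AP-1 motif for Tlr9 (6.75%) and the interferon-type motif for Tlr6 (2.98%). These shares count promoters, not genes, and the 7 members have 10 windows. Tlr1 and Tlr6 each have a further window without a match. Each sequence is written along its gene, 5′ to 3′, with the matches in capitals. The stretches of Tlr2, Tlr3 and Tlr6 are 30 bases each, and the Tlr9 window is shown whole, because Tlr9 is the member whose change with curcumin was above 0 on the 75th percentile.
Tlr2: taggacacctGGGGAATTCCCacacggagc
Tlr3: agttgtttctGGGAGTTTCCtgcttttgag
Tlr6: ctattctTTTCTCTTTCACTTTCtgtttga
Tlr9: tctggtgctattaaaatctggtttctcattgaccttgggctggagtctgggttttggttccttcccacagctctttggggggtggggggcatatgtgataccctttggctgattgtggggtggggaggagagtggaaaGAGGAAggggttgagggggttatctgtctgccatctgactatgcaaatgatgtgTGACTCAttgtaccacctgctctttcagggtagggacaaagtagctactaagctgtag

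The Tlr2 stretch lies at chr3:83841762-83841791 on the minus strand and holds overlapping kB matches from 173 to 163 bases before the start. The Tlr3 stretch lies at chr8:45410572-45410601, also minus, with its match from 211 to 202 bases before the start. In Tlr6 (chr5:64959260-64959289, minus) a pair of overlapping interferon-type matches on the opposite strand runs from 116 to 101 bases before the start. The Tlr9 window (chr9:106222348-106222597, plus strand) has the PU.1 letters from 112 to 107 and an AP-1 match, found on both strands, from 58 to 52 bases before the start. The Tlr9 window lies outside the annotated gene, while the windows of Tlr3 and Tlr6 lie inside, and that of Tlr2 partly inside, the extent of the gene. A match here is a match of letters and says nothing of binding.

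Curcumin lowered most of the receptor genes, both in resting and in LPS-treated cells. Without LPS, 6 of the 9 members fell (limma, adjusted p below 0.05), namely Tlr1, Tlr3, Tlr4, Tlr6, Tlr7 and Cd180, where 7.3% of all genes tested were called lower and 21.8% higher. With LPS, 7 of 9 fell, namely Tlr1, Tlr2, Tlr3, Tlr6, Tlr7, Cd14 and Cd180, against 6.01% of all genes called lower and 12.7% higher. Tlr3 is in both counts, although its probe passed the filter only through the untreated and LPS groups, where it was brighter. It was well above background on 0 of 3 curcumin and 1 of 3 LPS+curcumin arrays, so its calls rest partly on background readings. The members' median was -1.83 without LPS and -2.02 with LPS. On all 5 scalings tried, the same 6 were called lower without LPS (6.75% of all genes), and with LPS 6 of the 7 (5.18%), without Tlr2. LPS alone raised 1 of 9, Cd14, where 4.12% of all genes were called higher. Without LPS+curcumin replicate 1, limma called 3 members higher with LPS (6.15% of all genes), 7 lower and 1 higher with curcumin (12.8% and 36.7%), and 8 lower and 1 higher for LPS+curcumin against LPS (14.9% and 39.9%). With the slide as a block these were 3 (5.25%), 8 and 1 (10.9% and 31.1%), and 8 and 1 (8.75% and 20%). Some other settings ended most of the calls. With normexp, another background correction, 1 member was called lower without LPS (0.689% of all genes) and 1 with LPS (0.373%). Leaving out single arrays gave 3 to 8 called members without LPS and 2 to 9 with LPS, in either direction. All genes called then ranged from 2493 to 9568 and from 1085 to 10570 of 19305. The upper ends lie above the counts with all arrays and include Tlr9 called higher. In bulk RNA, fewer cells carrying a transcript and less of it per cell cannot be told apart.

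**Figure D1:**
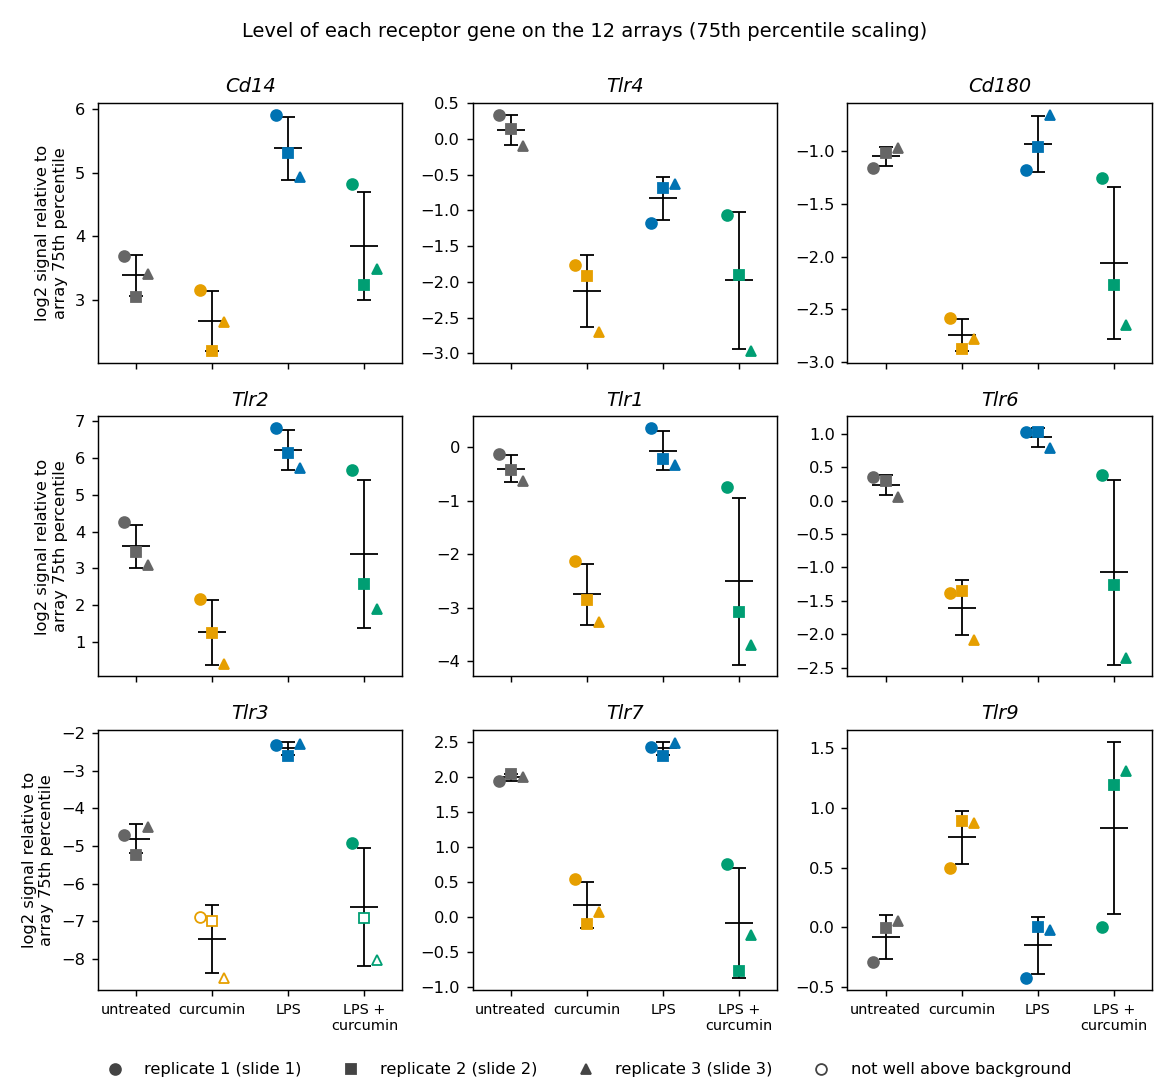
Level of each of the 9 measured receptor genes (log2 signal relative to the array's 75th percentile) on the 12 arrays, by group, with a separate axis for each gene. Filled symbols were well above background and open ones were not, symbol shapes mark the replicates, and horizontal bars and whiskers give the mean ± SD of 3 arrays. The first LPS+curcumin replicate lies nearest to the LPS arrays in every panel, as for Tlr2 at 5.68 against 2.59 and 1.89.

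In the LPS receptor complex, Cd14 was the member that LPS raised. Cd14 encodes the surface protein that passes LPS to Tlr4 and MD-2. Its level was 3.69, 3.05 and 3.42 on the 3 untreated arrays and 5.91, 5.30 and 4.93 on the LPS arrays. It was 3.15, 2.21 and 2.66 with curcumin and 4.82, 3.24 and 3.49 with both agents. All LPS arrays thus lay above all others, and all LPS+curcumin arrays above the curcumin arrays, while untreated and curcumin arrays overlapped. LPS raised Cd14 by 1.99 ± 0.42 (SE, n = 3 per group; limma, adjusted p = 0.0176), which is 3.98-fold, and by 2.22, 2.25 and 1.51 within the slides. On spike-in scaling the change was 1.72 ± 0.60 and was not called (adjusted p = 0.17), unless LPS+curcumin replicate 1 was left out (adjusted p = 0.00417). Leaving out untreated replicate 2 (adjusted p = 0.0902) or 3 (0.0595) also ended the call, as did leaving out LPS replicate 1 (0.088) or 2 (0.0581).

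Curcumin added to LPS lowered Cd14 by -1.54 ± 0.42, or 2.90-fold (limma, adjusted p = 0.031), and by -2.02 without LPS+curcumin replicate 1 (adjusted p = 0.000715). This call held on all 5 scalings and was lost without LPS replicate 1 (adjusted p = 0.103) or 2 (0.0828) or LPS+curcumin replicate 2 (0.129) or 3 (0.094). In resting cells the difference of Cd14 with curcumin was -0.71 ± 0.42 (adjusted p = 0.194). A block for the slide made it a call (adjusted p = 0.0447), as did spike-in scaling, where it was -1.82 ± 0.60 (adjusted p = 0.0272).

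Tlr4, the signalling receptor for LPS, fell with curcumin in resting cells. Its level was 0.33, 0.14 and -0.10 on the untreated arrays and -1.77, -1.92 and -2.70 on the curcumin arrays, which did not overlap. It was -1.18, -0.68 and -0.63 with LPS and -1.07, -1.91 and -2.97 with both agents. The fall with curcumin was -2.25 ± 0.42, or 4.77-fold lower (limma, adjusted p = 0.00419). It was called on all 5 scalings and whichever single array was left out, with differences of -2.10, -2.06 and -2.60 within the slides.

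All LPS arrays lay below all untreated arrays for Tlr4, by -1.51, -0.82 and -0.53 within the slides, but this change of -0.96 ± 0.42 was not called (limma, adjusted p = 0.3). Adding curcumin to LPS gave a difference of -1.15 ± 0.42 (adjusted p = 0.0778). The LPS+curcumin array of replicate 1 lay within the range of the LPS arrays here and differed from the LPS array of its slide by 0.11, against -1.22 and -2.34 on the other slides. Without it the difference was -1.61 ± 0.35 and was called (adjusted p = 0.00383), as it was with all arrays and a block for the slide (adjusted p = 0.0462). By their means the groups ran from untreated through LPS to LPS+curcumin and curcumin, and the arrays of the last pair overlapped.

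Cd180, also known as RP105, encodes a TLR-like surface protein that lacks a signalling domain and is known as a regulator of Tlr4. Its level was -1.15, -1.02 and -0.97 on the untreated arrays, -1.17, -0.96 and -0.65 with LPS, -2.58, -2.87 and -2.78 with curcumin, and -1.25, -2.27 and -2.65 with both agents. Untreated and LPS arrays overlapped (0.12 ± 0.31, adjusted p = 0.989), and all curcumin arrays lay below both. The fall with curcumin was -1.70 ± 0.31, or 3.24-fold lower (limma, adjusted p = 0.00366), on all 5 scalings and whichever array was left out. With LPS the fall was -1.13 ± 0.31 (adjusted p = 0.0309), or -1.53 ± 0.21 without LPS+curcumin replicate 1 (adjusted p = 0.000173). Within the slides it was -0.079, -1.31 and -1.99, so that it was smallest on slide 1. The call was lost when any LPS array (adjusted p = 0.0564, 0.0855 and 0.102 without replicates 1, 2 and 3) or LPS+curcumin replicate 2 (0.118) or 3 (0.0854) was left out.

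Tlr2, the shared partner of the lipoprotein receptors, had wide differences between the groups and a wide spread among the LPS+curcumin arrays. Its probe is printed 10 times on each array, and the spots of an array differed by a coefficient of variation of 1.42% to 4.88%, so the spread below lies between arrays. The level was 4.25, 3.45 and 3.10 on the untreated arrays and 6.80, 6.13 and 5.73 on the LPS arrays. It was 2.17, 1.23 and 0.40 with curcumin and 5.68, 2.59 and 1.89 with both agents. LPS arrays lay above and curcumin arrays below all untreated arrays, and 1 LPS+curcumin array came close below the lowest LPS array while the others lay below the untreated range.

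The change of Tlr2 with LPS was 2.62 ± 0.83 and was not called (limma, adjusted p = 0.108), although it was nearly the same on every slide (2.55, 2.68 and 2.63). A block for the slide made it a call (adjusted p = 0.0115), as did leaving out LPS+curcumin replicate 1 (adjusted p = 0.00375), which enters through the shared spread. With curcumin the change was -2.33 ± 0.83 (adjusted p = 0.0543), and -2.09, -2.22 and -2.69 within the slides. It passed with that block (adjusted p = 0.0081), under spike-in scaling (-3.44 ± 1.04, adjusted p = 0.0203), and without LPS+curcumin replicate 1 (0.0024) or 3 (0.0268). Curcumin added to LPS lowered Tlr2 by -2.83 ± 0.83, or 7.13-fold (adjusted p = 0.0382), and by -3.98 ± 0.51 without LPS+curcumin replicate 1 (adjusted p = 0.000121). That call was kept in 3 of 12 fits that left out an array, with adjusted p up to 0.144 in the others, and on 4 of 5 scalings. Arrays whose removal ended it were those of every untreated and LPS replicate, curcumin replicate 2 (0.0551) and LPS+curcumin replicates 2 (0.144) and 3 (0.125). The adjusted p was 0.051, 0.0561 and 0.0536 without untreated replicates 1, 2 and 3 and 0.112, 0.0983 and 0.0739 without the LPS ones.

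Tlr1 and Tlr6, the partners of Tlr2, are neighbouring genes. The level of Tlr1 was -0.13, -0.43 and -0.64 on the untreated arrays and -2.13, -2.86 and -3.27 with curcumin. It was 0.36, -0.21 and -0.33 with LPS and -0.74, -3.08 and -3.70 with both agents. Tlr6 had levels of 0.35, 0.29 and 0.056 in untreated cells, -1.38, -1.35 and -2.08 with curcumin, 1.03, 1.02 and 0.79 with LPS, and 0.39, -1.26 and -2.35 with both. For each gene all arrays of the curcumin group lay below all untreated arrays, and all LPS+curcumin arrays below all LPS arrays. Tlr6 was higher on all LPS arrays than on all untreated ones, while for Tlr1 these groups overlapped. Neither change with LPS was called (0.71 ± 0.53 for Tlr6 and 0.33 ± 0.62 for Tlr1, adjusted p = 0.681 and 0.973).

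Curcumin lowered Tlr1 by -2.35 ± 0.62 in resting cells, or 5.11-fold (limma, adjusted p = 0.0185), and by -2.44 ± 0.62 with LPS (adjusted p = 0.0232). For Tlr6 these falls were -1.83 ± 0.53, or 3.57-fold (adjusted p = 0.0266), and -2.02 ± 0.53 (adjusted p = 0.0259). All of these were called on all 5 scalings. Without LPS+curcumin replicate 1 the fall with LPS was -3.33 for Tlr1 and -2.75 for Tlr6. The calls in resting cells were lost for Tlr1 without untreated replicate 1 (adjusted p = 0.0609) or 2 (0.0546) or curcumin replicate 2 (0.0536) or 3 (0.075), and for Tlr6 without any 1 of the 6 untreated or curcumin arrays, with adjusted p up to 0.102. With LPS, the calls of both genes were lost without any LPS array or without LPS+curcumin replicate 2 or 3, with adjusted p up to 0.0984 for Tlr1 and 0.0958 for Tlr6.

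**Figure D2:**
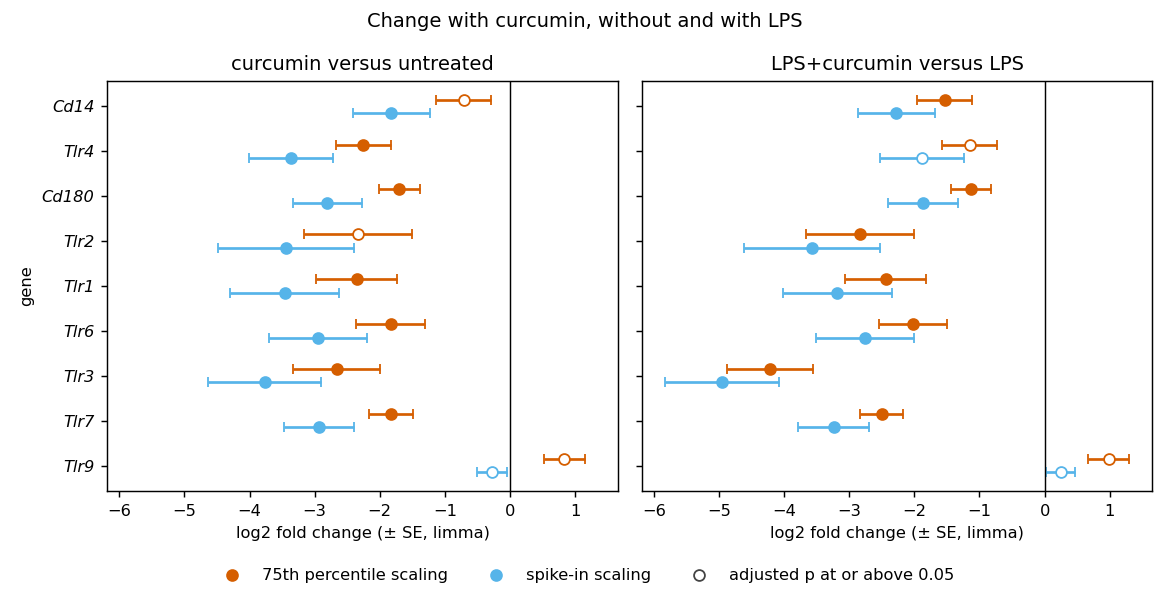
Change with curcumin in resting cells (left) and in LPS-treated cells (right) for the 9 genes, as log2 fold change ± SE from limma on 75th percentile and on spike-in scaling; open symbols have an adjusted p at or above 0.05. On the 75th percentile 8 of the 9 genes lie below 0 in each panel, and Tlr9 lies above it at 0.83 and 0.98, with a spike-in value of -0.27 without LPS and 0.25 with LPS; Tlr3 was above background on 1 of the 6 arrays with curcumin.

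Tlr3, the endosomal receptor for double-stranded RNA, was measured above background in untreated and LPS-treated cells and on 1 of the 6 arrays with curcumin. Its level was -4.71, -5.23 and -4.49 on the untreated arrays and -2.32, -2.60 and -2.29 on the LPS arrays. It was not well above background on any curcumin array (measured at -6.89, -7.00 and -8.52), and with both agents it was above background on replicate 1 (-4.91) and on neither of the others (-6.92 and -8.02). The 3 LPS arrays lay above all untreated arrays, and these above all curcumin arrays. Its second probe was dimmer and had the same pattern of detection, with 3 of 3 arrays in untreated cells and with LPS, 0 of 3 with curcumin, and 1 of 3 with both agents. The change with LPS was 2.41 ± 0.66, or 5.31-fold, and was not called (limma, adjusted p = 0.0627). It passed with a block for the slide (adjusted p = 0.0383) and without LPS+curcumin replicate 1 (0.00387) or 3 (0.0233).

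With curcumin alone Tlr3 was at least 3.29-fold lower by the first probe and at least 1.32-fold lower by the second, taking the background as the bound (fitted change -2.66 ± 0.66; limma, adjusted p = 0.0153). This call was lost without untreated replicate 3 (adjusted p = 0.0547) or curcumin replicate 3 (0.0667). In LPS-treated cells the fitted fall was -4.22 ± 0.66 (adjusted p = 0.00326), called whichever array was left out, with 1 of 3 LPS+curcumin arrays above background. Without that array none was, and the level was at least 13.3-fold lower by the first probe and at least 6.41-fold lower by the second. On slide 1, where both arrays were above background, it was -2.59. Both falls were called on all 5 scalings. The probe passed the filter only through the untreated and LPS groups, where it was brighter, and the lower readings were mostly not well above background. The p-values of both falls, and their stability when arrays were left out, are therefore no separate support for a fall. Background correction by normexp, a model of signal and background, gave a change of Tlr3 of 1.16 with curcumin alone (adjusted p = 0.196) and -1.07 with LPS (adjusted p = 0.749).

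Tlr7, the endosomal receptor for single-stranded RNA, fell with curcumin both with and without LPS. Its level was 1.94, 2.04 and 1.995 on the untreated arrays and 2.43, 2.30 and 2.49 with LPS. It was 0.54, -0.11 and 0.073 with curcumin and 0.76, -0.78 and -0.27 with both agents. The 6 arrays without curcumin lay above the 6 arrays with it, LPS+curcumin replicate 1 included. The fall was -1.83 ± 0.33 without LPS, or 3.55-fold (limma, adjusted p = 0.00363), and -2.50 ± 0.33 with LPS, or 5.67-fold (adjusted p = 0.00165). Both were called on all 5 scalings, with any single array left out and with normexp background correction (adjusted p = 0.015 and 0.0201), and Tlr7 was the only member called with normexp in either comparison. Without LPS+curcumin replicate 1 the fall with LPS was -2.93 ± 0.23. LPS alone gave 0.41 ± 0.33 (adjusted p = 0.734), with all LPS arrays above all untreated ones on the 75th percentile and overlap on spike-in scaling. The probe of Tlr8, the neighbour of Tlr7, was well above background on 0 of 12 arrays.

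Tlr9, the endosomal receptor for DNA rich in unmethylated CpG, was not called lower in either comparison. Its mean level was -0.079 ± 0.18 (SD, n = 3) in untreated cells, -0.15 ± 0.24 with LPS, 0.75 ± 0.22 with curcumin and 0.83 ± 0.72 with both agents. On this scale all curcumin arrays lay above all untreated arrays, by 0.79, 0.89 and 0.82 within the slides, and the change of 0.83 ± 0.32 was not called (limma, adjusted p = 0.0657) unless the slide was a block (0.0178) or LPS+curcumin replicate 1 (0.00501) or 3 (0.0359) was left out. The direction depended on the scaling. Relative to the spike-in probes the level was -1.28, -0.98 and -1.24 in untreated cells and -1.55, -1.29 and -1.48 with curcumin, with no overlap in the other direction, and the difference was -0.27 ± 0.23 (adjusted p = 0.303). With LPS the change with curcumin was 0.98 ± 0.32 on the 75th percentile (adjusted p = 0.0518), 1.40 ± 0.21 without LPS+curcumin replicate 1 (adjusted p = 0.000348), and 0.25 ± 0.23 relative to the spike-ins (adjusted p = 0.438). With all arrays and a block for the slide the adjusted p was 0.0134.

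**Figure D3:**
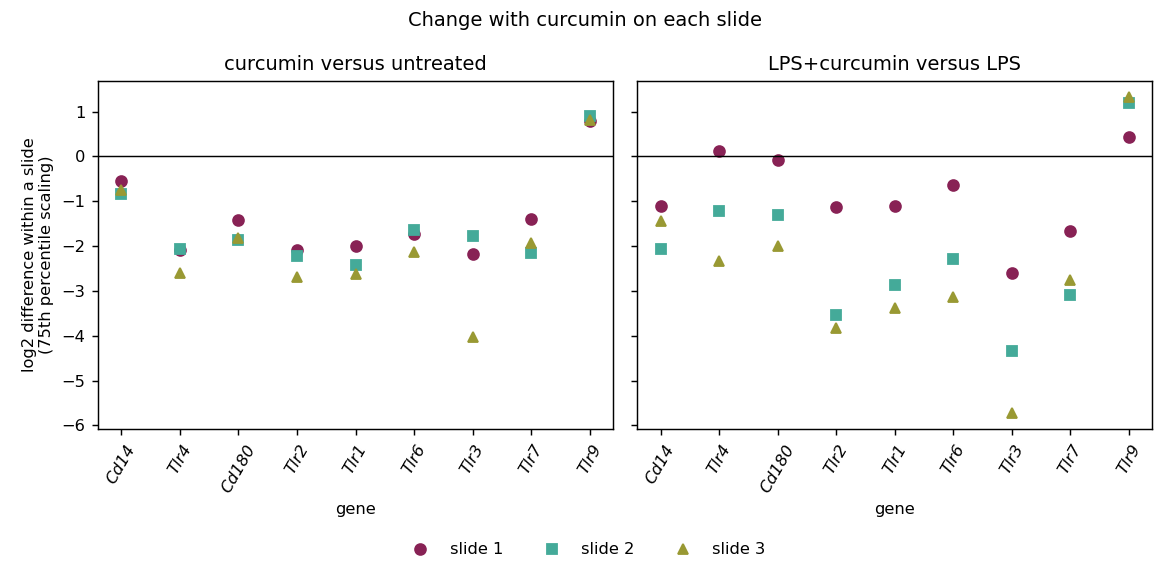
Difference between the curcumin and untreated arrays (left) and between the LPS+curcumin and LPS arrays (right) of the same slide, for the 9 genes, in log2 units on the 75th percentile. The 3 slides lie close together without LPS for most genes, while with LPS slide 1 lies nearer to 0 than the other slides for every gene, as for Tlr2 at -1.13 against -3.54 and -3.83.

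Overlap between groups was counted over the whole set. With curcumin alone, 7 members had all 3 arrays below and 1 above all untreated arrays, where 18% and 47.4% of all genes did so. For LPS+curcumin against LPS these were 7 and 1 members, where 9.31% and 19.3% of all genes did so. Tlr3 is 1 of the 7 in both, and its probe passed the filter only through the groups without curcumin. For LPS against untreated, 5 members were above (Tlr2, Tlr3, Tlr6, Tlr7 and Cd14) and Tlr4 below, where 16.8% and 15.8% of all genes did so. The counts of members above for LPS and below for the other comparisons were 4, 9 and 6 on spike-in scaling, where 7.45%, 61.5% and 19.9% of all genes did so. With spike-in scaling limma called 8 members lower with curcumin alone, where 42.5% of all genes were called lower, and 7 for LPS+curcumin against LPS, where 12.1% were. It called 0 of 9 for LPS against untreated, with 3 members at an unadjusted p below 0.05, where 3.2% of all genes were called.

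A response of the receptor genes to LPS in the presence of curcumin was not detected with these arrays. For LPS+curcumin against curcumin, limma called 0 of 9 members (3 at an unadjusted p below 0.05), where 0.212% of all genes were called. The largest differences were those of Tlr2 (2.12 ± 0.83, adjusted p = 0.768) and Cd14 (1.17 ± 0.42, adjusted p = 0.677), and Cd14 was the 1 member with all 3 LPS+curcumin arrays above the curcumin arrays, where 3.13% of all genes had this. Within the slides the difference of Tlr2 was 3.51, 1.35 and 1.49 and that of Cd14 was 1.66, 1.03 and 0.83. Leaving out LPS+curcumin replicate 1, they were 0.97 ± 0.51 and 0.69 ± 0.34 (adjusted p = 0.576 and 0.538). The same comparison without curcumin gave 2.62 for Tlr2 and 1.99 for Cd14, and the 2 comparisons share no arrays.

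Whether curcumin acted differently with and without LPS was tested as an interaction, the change with curcumin in LPS-treated cells minus that in resting cells. Limma called 0 of 9 members and none had an unadjusted p below 0.05, where 0.72% of all genes were called. The values were -0.50 ± 1.17 for Tlr2, -0.82 ± 0.60 for Cd14 and 1.104 ± 0.60 for Tlr4 (adjusted p = 1, 1 and 0.922). No value is given for Tlr3, whose change with curcumin alone is a bound. Without LPS+curcumin replicate 1, 0 members were called and 4 had an unadjusted p below 0.05, where 2.26% of all genes were called.

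**Figure D4:**
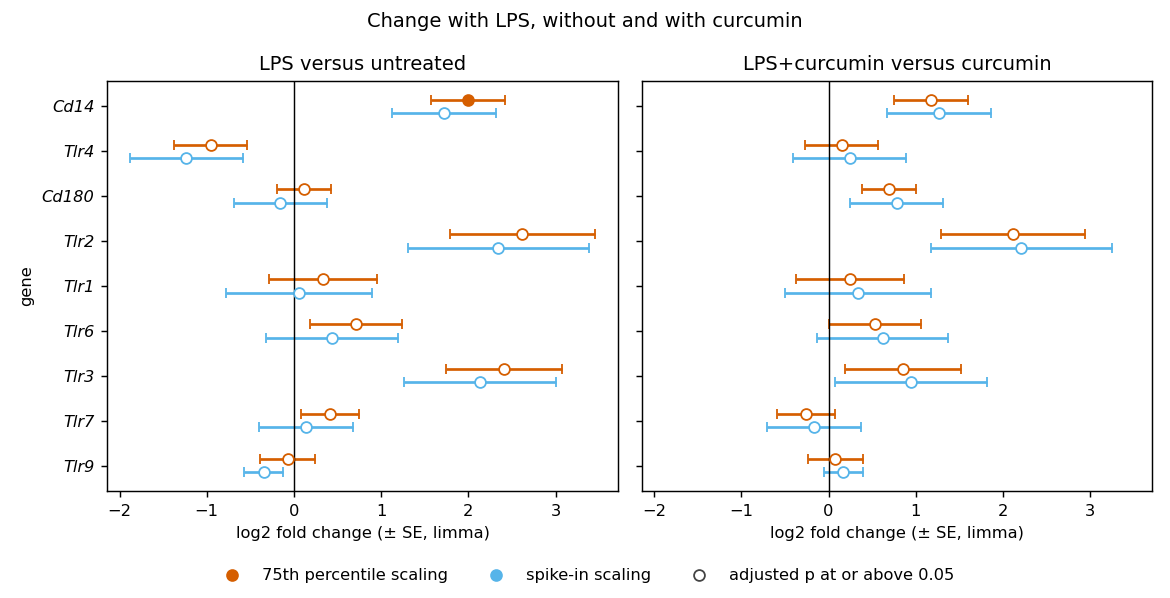
Change with LPS in cells without curcumin (left) and with curcumin (right) for the 9 genes, as log2 fold change ± SE from limma on 75th percentile and on spike-in scaling; open symbols have an adjusted p at or above 0.05. Cd14 on the 75th percentile in the left panel, at 1.99, is the single filled point, and Tlr4 lies below 0 in that panel at -0.96.

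Of 52 other pathway genes listed, 48 had a probe and 46 were tested: ligand handling, receptor folding and traffic, adaptors, kinases and ubiquitin ligases, and inhibitors. With LPS, 8 of 46 rose and none fell, where 4.12% of all genes were called higher. Those with the smallest adjusted p were Tnfaip3, which encodes the NF-kB inhibitor A20 (4.25 ± 0.84, limma, adjusted p = 0.0116), the inhibitory kinase-like gene Irak3 (2.54 ± 0.51, adjusted p = 0.0127), the ubiquitin ligase gene Peli1 (1.67 ± 0.39, adjusted p = 0.0297) and Myd88, the adaptor shared by most TLRs (0.84 ± 0.20, adjusted p = 0.0301). On spike-in scaling 0 of the 46 were called and 11 had an unadjusted p below 0.05, where 3.2% of all genes were called. With normexp 1 rose, where 197 of 19305 genes were called in either direction.

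With curcumin alone, 4 of the 46 pathway genes rose and 1 fell, where 21.8% and 7.3% of all genes were called higher and lower, with a median of 0.12 over the list against 0.41 over all genes. With LPS+curcumin replicate 1 left out, 12 rose and 8 fell (36.7% and 12.8% of all genes), and with normexp 0 of 46 were called. The one that fell was Ticam2, which encodes TRAM, the adaptor that links Tlr4 to the interferon branch (-1.50 ± 0.38, limma, adjusted p = 0.0155), on all 5 scalings. The B-cell adaptor gene Pik3ap1 (0.97 ± 0.25, adjusted p = 0.0178), the kinase gene Irak1 (0.63 ± 0.20, adjusted p = 0.0397) and Lrrc59, a gene of TLR traffic (0.76 ± 0.25, adjusted p = 0.0401), were among the 4 that rose, and on spike-in scaling they had values of -0.13, -0.48 and -0.34. On that scaling 25 of 46 fell and none rose, where 42.5% of all genes were called lower. Ly96, which encodes MD-2, and Unc93b1, the escort of endosomal TLRs, were picked out for their role after their values were seen. Their changes with curcumin were -0.12 ± 0.18 and 0.51 ± 0.29 (adjusted p = 0.622 and 0.176), and -1.22 (adjusted p = 0.0183) and -0.59 (0.198) on spike-in scaling.

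Curcumin added to LPS lowered 5 of the 46 pathway genes, where 6.01% of all genes were called lower, and all 5 calls held on all 5 scalings. None was called higher with all arrays. When LPS+curcumin replicate 1 was left out, 15 were lower and 9 higher (14.9% and 39.9% of all genes), with the slide as block 7 and 2 (8.75% and 20%), and with normexp 0 of 46 were called. They were Irak3 (-2.80 ± 0.51, limma, adjusted p = 0.00597), the kinase gene Ikbke (-3.14 ± 0.76, adjusted p = 0.0198), the endolysosomal transporter gene Slc15a4 (-0.54 ± 0.15, adjusted p = 0.0292), Ticam2 (-1.24 ± 0.38, adjusted p = 0.0431) and Myd88 (-0.63 ± 0.20, adjusted p = 0.0465). Without LPS+curcumin replicate 1 the changes were -3.54, -4.31, -0.56, -1.43 and -0.56 in this order. For LPS+curcumin against curcumin and for the interaction, 0 of 46 were called by limma, with 5 and 4 at an unadjusted p below 0.05, where 0.212% and 0.72% of all genes were called. With the slide as block 2 rose for LPS+curcumin against curcumin, Peli1 and Tnfaip3, where 68 of 19305 genes were called in either direction. The interaction without LPS+curcumin replicate 1 was called for 2 of 46 (2.26% of all genes), Irak3 (-2.53, limma, adjusted p = 0.00235) and Ikbke (-3.59, adjusted p = 0.00059), against -1.79 and -2.42 with all arrays (adjusted p = 0.621 and 0.734).

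Genes whose levels followed a receptor gene most closely over the 12 arrays were taken from 11969 named genes by Pearson's r, as a description. The arrays fall into treatment groups and share slides, so a high r is common, and between 1.76% and 4.64% of the genes had an r above 0.9 with each member but Tlr9. The closest to Tlr4 was Rnf168 (r = 0.99), to Tlr2 Ptprj and Marcks (0.99 for both), to Cd14 Acsl1 and Rasgef1b (0.98 for both), and to Tlr7 Nupl2 (0.99) and Evi2a (0.98). Those closest to Tlr3 were Parp11 and Tpst1 (0.98 for both), to Tlr1 Dse and Iba57 (0.99 for both), to Tlr6 Srgap2 and Tmem168 (0.995 and 0.99), and to Cd180 Fam98a and Ado (0.98 for both). For these named pairs the r on spike-in scaling was no lower than 0.986. This is no separate check, because that scaling moves every gene of an array by the same amount, which can raise r. The next closest to Cd14, Heatr6 (r = 0.98), had an r of 0.92 on that scaling. The r values of Tlr3 rest partly on arrays where its probe was not well above background. For Tlr9, 10.03% of genes had an r above 0.9, and the closest, Lpo, Neurog3 and Simc1 (0.99 each), had an r of 0.56, 0.81 and 0.63 on spike-in scaling.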

How the data were processed

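The authors deposited linear spot intensities for each array. The software was Agilent Feature Extraction, for which the file headers give version 10.5.1.1 and the submitters' processing notes 9.1. Its processed signal is an intensity with the background already subtracted, per the file headers. Control spots and outlier spots were left out (1594 outlier spots on LPS+curcumin replicate 2, at most 163 on any other array), spots of a probe were averaged on the log2 scale, and the probe with the highest mean signal stood for a gene. Where no array of a group was well above background, a fold is a bound against the lowest signal well above background.

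The 12 arrays entered 1 linear model of 4 group means (lmFit and eBayes of limma 3.58.1, on R 4.3.3), two-sided, with Benjamini-Hochberg adjustment over 19305 genes and transcripts, and a gene was called at an adjusted p below 0.05. The code of the fit was checked on simulated arrays, drawn independently, with set changes for LPS against untreated. These arrays hold no slide effect and none stands apart, so the check does not cover such features of the data. Alternatives were spike-in, quantile, median and always-detected-probe scaling, normexp correction (offset 50, on median signals and backgrounds), the value table deposited by the authors, the slide as a block, other probe filters and leaving out each array. Same-numbered arrays of different groups deviated together, with a correlation above 0.1 in 16 of 18 pairs of arrays. The headers show that a number is a slide, so the slide was tried as a block. Probes were named through RefSeq accessions. All 10 members are named, with the 4 called pathway genes of smallest adjusted p per comparison (and others, chosen after their values were seen) and the genes closest to each member, of which some are not reported here. The members and lists were chosen with earlier results of these data known.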

Additional observations from a re-analysis of the deposited data

How the results depend on the processing

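Counts of all genes called and of members called moved with the settings. Normexp background correction left 197, 884, 89, 10 and 2 genes called for LPS alone, curcumin alone, curcumin added to LPS, LPS added to curcumin and the interaction, against 1105, 5618, 3613, 41 and 139, and 0, 1 and 1 members in the first 3. Spike-in scaling gave 618, 9606, 21 and 56 genes (LPS, curcumin, LPS+curcumin versus curcumin and interaction), median scaling 656, 24 and 72 (without curcumin versus untreated), and quantile scaling 89 for the interaction, which had 73 with probes above background on all 12 arrays. Under spike-in and median scaling 0 members were called for LPS, and 2 with probes of a gene averaged. With the slide as a replicate block, 5555, 68 and 224 genes were called for LPS+curcumin versus LPS, versus curcumin and the interaction, and 3 members for LPS, none of the members' calls being lost. An alternative chosen after seeing the data, spike-in scaling without LPS+curcumin replicate 1, gave 1932, 12219, 10627 and 375 genes (LPS, curcumin, LPS+curcumin versus LPS and interaction) and 3 members for LPS. Leaving out 1 array at a time gave 576 to 1828, 2493 to 9568, 1085 to 10570, 14 to 203 and 79 to 437 genes in the order above, and 0 to 3, 3 to 8 and 2 to 9 members in the first 3 comparisons.

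Among called changes, the direction turned for Tlr3 with curcumin under normexp (1.16), where its probe was not well above background. The other reversals were of changes that were not called. For LPS versus untreated, Cd180 was -0.16 on spike-in scaling with all arrays and without LPS+curcumin replicate 1, and -0.030 on median scaling. For curcumin, Tlr9 was -0.27 on spike-in scaling in both forms and -0.0049 on median scaling. For LPS+curcumin versus curcumin, normexp gave -0.054 for Cd180, -0.14 for Tlr1, -0.76 for Tlr3 and -0.21 for Tlr4, and spike-in scaling without LPS+curcumin replicate 1 gave -0.92 for Tlr1, -0.28 for Tlr3, -0.59 for Tlr4 and -0.48 for Tlr6. For the interaction, Cd180 was -0.14 with normexp, Tlr1 0.28, 0.016 and 0.012 on spike-in, median and always-detected scaling, and Tlr6 0.18 on spike-in scaling. With 1 array left out, changes with LPS ran from -0.019 to 0.24 for Cd180 and from -0.18 to 0.066 for Tlr9. For LPS+curcumin versus curcumin they ran from -0.64 to 0.85 for Tlr1, -0.0017 to 1.55 for Tlr3, -0.31 to 0.64 for Tlr4, -0.20 to 1.17 for Tlr6, -0.69 to 0.081 for Tlr7 and -0.16 to 0.49 for Tlr9. The interaction ran from -0.97 to 0.51 for Tlr1, -1.65 to 0.24 for Tlr2, -0.92 to 0.46 for Tlr6 and -0.085 to 0.56 for Tlr9. The cause of these moves was not tested. For Tlr3, the values for LPS+curcumin versus curcumin compare readings that were not well above background, save on 1 LPS+curcumin array. They are therefore no measure of a change or of its direction.

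The number of arrays, 3 a group, limits the precision, and for Tlr3 so does the background.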
